A study of Caenorhabditis elegans with 2 samples.

Results

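Genes that lie close together on 1 strand of the *Caenorhabditis elegans* genome were examined for binding of REF-2, with the first gene of each run of neighbours set against the genes that follow it. A run was taken as at least 2 neighbouring protein-coding genes on the same strand with 0 to 300 bp between the end of each gene and the start of the next, on assembly WBcel235 (called ce11 in genome browsers). This rule used positions only and gave 1908 runs with 1908 first genes and 2400 later genes, together 4308 of 19973 protein-coding genes. The other 15665 genes lay outside runs. Binding was mapped with ChIP-seq, which sequences the DNA that is precipitated together with a protein, in hermaphrodites of strain OP520 at the late embryonic stage, 3 hours after eggs were bleached to synchronize the worms. The strain carries unc-119(tm4063) on chromosome III and the integrated transgene wgIs520, which encodes REF-2 with a C-terminal GFP-FLAG tag, and the precipitation used an antibody against GFP. All samples share this genotype and form 1 group of 2 biological replicates, with no other condition. The tagged protein comes from a transgene, whole worms were used so that cell types are mixed, and neither an untagged strain nor a control library was analysed here.

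REF-2 belongs to the Zic family of DNA-binding zinc finger proteins, which control cell fates in the epidermis and the nervous system. In *C. elegans*, many closely spaced genes on 1 strand form operons, in which RNA polymerase starts upstream of the first gene and reads through the genes behind it. The long transcript is cut into separate messenger RNAs, and a short spliced leader is joined to each downstream message at an AG just before its start. Some operons also hold an internal promoter, from which a downstream gene is transcribed on its own. Tight spacing alone does not show that genes share a transcript, and no operon annotation or spliced leader data were used here, so the runs are named by their spacing only.

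Most runs were short. There were 1550 runs of 2 genes, 259 of 3, 73 of 4, 18 of 5, 7 of 6 and 1 of 7. The median gap between consecutive genes was 115 bp, and 982 of the 2400 gaps (40.9%) measured 80 to 130 bp.

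The deposited peak lists give each peak a summit, the position of its strongest signal, and a signal value that is the authors' own. The optimal list, thresholded on reproducibility between the replicates per the labels' file descriptions, held 2129 peaks with a signal of 106 to 2351, and the pooled relaxed list held 30000 peaks down to a signal of 37.2. A gene was counted as having a summit when one lay in its promoter window, which began 1000 bp upstream of its 5′ end and ended 200 bp downstream. Read depth per library is unknown, so no value here carries a depth, and the 95% intervals (exact Clopper-Pearson) cover counting error only.

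Sequences at 4 of the strongest summits of first genes are shown as examples of bound places in front of runs. Stronger than some of these were the summits of his-68 and of K10D2.5 with prp-19, which are not printed. Each holds the summit and 50 bases on either side, on the strand of the gene, 5′ to 3′, read from RefSeq's WBcel235 assembly, with the 21 bases centred on the summit in capitals. K12H4.5 heads a run of 4 genes (III:8043910-8044010, plus strand), K01G5.10 a run of 3 that ends in hpl-2 (III:10759191-10759291, minus), rpl-15 a pair (IV:654869-654969, minus) and F29B9.11 a pair with mrps-21 (IV:4660534-4660634, minus).
K12H4.5: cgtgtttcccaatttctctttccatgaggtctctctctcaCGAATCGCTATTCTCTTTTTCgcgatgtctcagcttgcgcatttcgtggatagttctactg
K01G5.10: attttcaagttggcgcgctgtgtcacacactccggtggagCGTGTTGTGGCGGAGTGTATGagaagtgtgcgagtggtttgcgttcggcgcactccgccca
rpl-15: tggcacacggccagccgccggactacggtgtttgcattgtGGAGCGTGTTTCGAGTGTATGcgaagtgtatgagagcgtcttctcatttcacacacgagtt
F29B9.11: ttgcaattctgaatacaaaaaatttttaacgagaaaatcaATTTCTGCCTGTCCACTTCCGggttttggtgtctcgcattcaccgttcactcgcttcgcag

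The next set shows summits inside runs, between an upstream gene and a later gene, marked in the same way. For F10E9.11 and fbxl-2 the whole gap between the genes is given: 204 bases after F10E9.10 (III:8319261-8319464, minus) and 238 bases after rbg-3 (III:4757022-4757259, plus). For exos-8 (II:6741574-6741674, plus) and F13A7.14 (V:16401684-16401784, plus) the summit and 50 bases on either side are given.
F10E9.11: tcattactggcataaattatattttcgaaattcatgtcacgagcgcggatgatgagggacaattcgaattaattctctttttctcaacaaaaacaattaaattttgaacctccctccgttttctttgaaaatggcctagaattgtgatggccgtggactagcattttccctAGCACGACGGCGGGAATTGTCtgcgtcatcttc
fbxl-2: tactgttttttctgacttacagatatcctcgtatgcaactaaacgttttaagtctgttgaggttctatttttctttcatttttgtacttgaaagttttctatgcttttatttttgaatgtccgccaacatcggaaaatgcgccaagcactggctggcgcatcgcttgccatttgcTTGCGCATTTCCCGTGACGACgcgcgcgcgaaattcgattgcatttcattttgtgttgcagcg
exos-8: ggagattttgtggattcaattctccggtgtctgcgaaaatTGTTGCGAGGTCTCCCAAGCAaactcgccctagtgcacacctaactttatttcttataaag
F13A7.14: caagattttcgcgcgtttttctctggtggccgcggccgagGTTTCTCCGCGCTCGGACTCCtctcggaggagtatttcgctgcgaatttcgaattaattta

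The last set shows 3 gaps of well-known tight gene pairs that held no summit in the optimal list, chosen after their values were seen. They are the gaps before gpd-3 (X:3113342-3113442, minus), rps-16 (V:15000542-15000650, minus, 109 bases) and deg-3 (V:11415160-11415271, minus, 112 bases). The capitals mark the CAG directly before the annotated 5′ end of the later gene.
gpd-3: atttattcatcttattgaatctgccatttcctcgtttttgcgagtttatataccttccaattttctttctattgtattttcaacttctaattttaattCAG
rps-16: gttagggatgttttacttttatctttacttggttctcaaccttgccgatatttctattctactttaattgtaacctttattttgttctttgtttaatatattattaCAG
deg-3: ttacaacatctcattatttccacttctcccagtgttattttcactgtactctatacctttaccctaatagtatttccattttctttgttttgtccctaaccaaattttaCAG

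The first comparison asks whether REF-2 summits lay in front of runs or in front of the genes inside them. First genes had an optimal summit more often than the genes behind them. Of 1908 first genes, 271 had one (14.2%, interval 12.7 to 15.9), of 2400 later genes 70 (2.92%, 2.28 to 3.67), and of 15665 genes outside runs 915 (5.84%, 5.48 to 6.22), where 6.29% of all genes had one. Each run was then counted once, with its first gene set against its second. In 243 runs the first gene alone had an optimal summit, in 28 the second alone, in 28 both and in 1609 neither. The difference was 11.3 percentage points (exact two-sided binomial test on the 243 and 28 runs, Benjamini-Hochberg adjusted over 2 lists, p = 1.22e-43). In the stronger part of the optimal list by signal, which holds fewer peaks, the difference was 6.76 points (146 runs against 17). Runs are not replicate samples, so the p describes this list and not the spread between worms. The 271 first genes rest on 241 distinct summits, so the p counts some summits more than once. With 1 run kept per shared summit, an alternative chosen after seeing the data, the difference was 10.1 points (217 runs against 28, adjusted p = 4.22e-37 in the same exact test). Every later gene has an upstream neighbour on its own strand, and genes outside runs with such a neighbour had an optimal summit in 3.68% (3.27 to 4.13), an interval that overlaps that of later genes. The differences from genes outside runs were not tested.

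Either replicate alone gave the same order. Among the 2129 strongest peaks of replicate 1, a summit lay in the window of 14.5% of first genes, 3.04% of later genes and 6.06% of genes outside runs, against 6.50% of all genes. Among as many of replicate 2 the shares were 13.0% of first genes, 2.92% of later genes and 5.60% of genes outside runs, against 5.98% of all genes. The first gene alone was marked in 247 runs and the second alone in 33 in replicate 1, and in 223 and 33 runs in replicate 2.

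**Figure D1:**
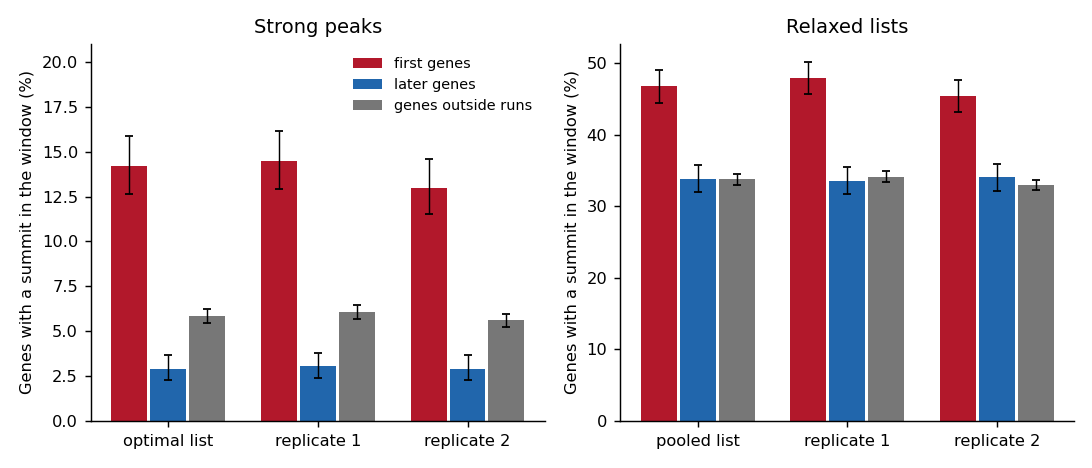
Percent of genes with a summit in the promoter window for first genes, later genes and genes outside runs, with exact 95% intervals, in the optimal list and the 2129 strongest peaks of each replicate (left) and in the relaxed lists (right). First genes stand highest in each of the 6 lists. Among strong peaks later genes stand below genes outside runs of any arrangement (2.92% against 5.84% in the optimal list), while in the relaxed lists the intervals of the 2 groups overlap.

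In the pooled relaxed list, which adds many weaker peaks, the first gene was again marked more often, but later genes did not stand below genes outside runs. A relaxed summit lay in the window of 892 first genes (46.8%, 44.5 to 49.0), 813 later genes (33.9%, 32.0 to 35.8) and 5289 genes outside runs (33.8%, 33.0 to 34.5), with 35.0% over all genes. The first gene alone was marked in 497 runs, the second alone in 250, both in 395 and neither in 766, a difference of 12.9 points (same exact test, adjusted p = 1.04e-19). This difference moved with the window: it was 5.82 points with 2000 bp upstream, and 8.23 points when a summit counted only for the nearest 5′ end. The relaxed list of replicate 1 marked 47.9% of first and 33.5% of later genes, against 35.4% of all genes. That of replicate 2 marked 45.4% of first and 34.0% of later genes, against 34.3% of all genes.

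The rank of a summit separated these 2 pictures. For summits of ranks 1 to 2129 by pooled signal, which are those of the optimal list, runs marked at the first gene alone outnumbered those marked at the second alone by 243 to 28. For ranks 2130 to 5000 the counts were 115 and 65, for ranks 5001 to 10000 they were 149 and 97, and for ranks 10001 to 20000 they were 211 and 188. For ranks 20001 to 30000 there were 199 runs with the first gene alone and 203 with the second alone. The surplus at first genes thus shrank with rank, and in the weakest class first genes (13.1%) and later genes (14.0%) had about the same share of windows with a summit. The classes were not compared with a test. Among genes with any relaxed summit, 30.4% of first genes and 8.61% of later genes had one that was also in the optimal list, against 17.3% of genes outside runs.

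**Figure D2:**
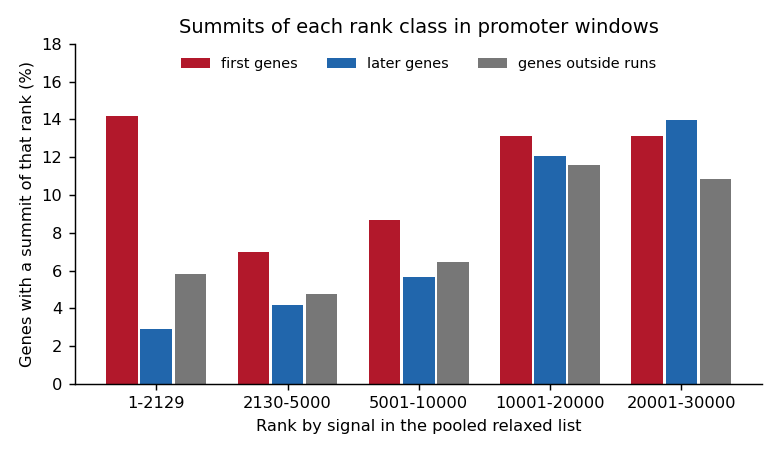
Percent of first genes, later genes and genes outside runs with a summit of the given rank in the promoter window, for classes of rank by signal in the pooled relaxed list (rank 1 is strongest). The bars of first and later genes differ most for ranks 1 to 2129 (14.2% and 2.92%) and stand at 13.1% and 14.0% for ranks 20001 to 30000.

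Beyond the first gene, shares by position differed by less than their intervals. An optimal summit lay in the window of 56 of 1908 second genes (2.94%), 11 of 358 genes at position 3 (3.07%, 1.54 to 5.43) and 3 of 99 genes at position 4 (3.03%, 0.629 to 8.60). None of the 26 genes at position 5 had one, a count that allows a share of up to 13.2%. First genes of runs of 2 had one in 13.7% (12.1 to 15.6), those of runs of 3 in 13.5% (9.60 to 18.3), those of runs of 4 in 24.7% (15.3 to 36.1) and those of longer runs in 19.2% (6.55 to 39.4). These intervals overlap.

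On each of the 6 chromosomes the first gene was marked more often. The share of first genes with an optimal summit ran between 9.79% on V and 18.3% on III, and that of later genes between 1.63% on X and 4.39% on III. Genes outside runs ranged between 3.35% on V and 8.07% on III. Runs with the first gene alone outnumbered runs with the second alone on all 6, by 51 to 4 on I, 47 to 8 on II, 48 to 4 on III, 39 to 4 on IV, 34 to 6 on V and 24 to 2 on X.

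Summits in front of runs lay close to the first gene. The 271 first genes with an optimal summit rested on 241 distinct summits, with a median position of -235 bp from the 5′ end. For 264 of the genes the strongest summit lay upstream of the run and for 7 inside the first gene, and for 108 it lay within 200 bp upstream. More than 100 and up to 200 bp upstream of the 5′ end there were 37.2 optimal summits per 1000 first genes, 6.67 per 1000 later genes and 11.9 per 1000 genes outside runs. More than 200 and up to 300 bp upstream the densities were 24.6 per 1000 first genes, 0.833 per 1000 later genes and 11.2 per 1000 genes outside runs. In the relaxed list, later genes had their lowest density more than 200 and up to 300 bp upstream, with 69.2 summits per 1000 first genes, 20.4 per 1000 later genes and 46.3 per 1000 genes outside runs. In the next bin toward the gene the densities were 94.3 per 1000 first genes, 26.7 per 1000 later genes and 52.0 per 1000 genes outside runs, and in the nearest 100 bp they were 61.3 per 1000 first genes, 35.0 per 1000 later genes and 46.6 per 1000 genes outside runs.

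**Figure D3:**
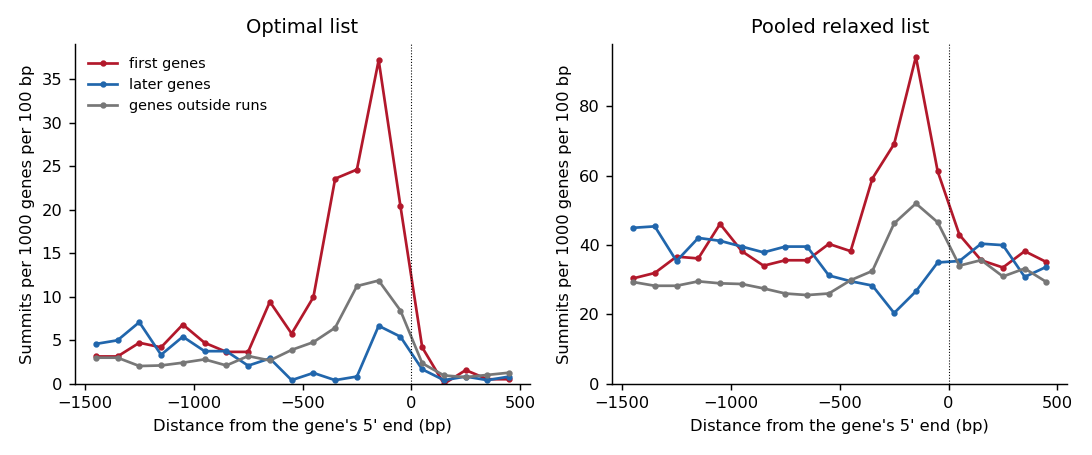
Summits per 1000 genes in bins of 100 bp around the annotated 5′ end (dotted line) of first genes, later genes and genes outside runs, in the optimal list (left) and the pooled relaxed list (right). First genes peak at 37.2 optimal summits per 1000 genes in the bin that reaches 200 bp upstream, where later genes have 6.67.

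What lies in the windows differed between the groups. The median window of a first gene was 69.5% outside protein-coding genes and 16% coding exon, that of a later gene 10.6% outside genes and 43.3% coding exon, and that of a gene outside runs 83.3% outside genes and 13.1% coding exon. Per length of sequence outside protein-coding genes, optimal summits numbered 177 per Mb in the windows of first genes, 120 per Mb in those of later genes and 62.0 per Mb in those of genes outside runs. In coding exons they numbered 2.03 per Mb in windows of first genes (1 summit), 2.49 in those of later genes (3 summits) and 5.15 in those of genes outside runs (16 summits). Windows of later genes can reach upstream of the whole run. Outside protein-coding genes they held 46 optimal summits, while the gaps within runs alone held 27 (79.97 per Mb). How much of the low count at later genes goes with their gene-filled windows was not tested.

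The space directly before each gene gives a closer view. The gaps within runs, 338 kb in all, held 27 optimal summits, or 79.97 per Mb. Gaps of 1 to 100 bp held 1 summit (17.8 per Mb), gaps over 100 and up to 200 bp held 8 (58.4 per Mb) and gaps over 200 and up to 300 bp held 18 (124 per Mb). In front of first genes with that much free space, the nearest 100 bp held 36 summits (207 per Mb), the nearest 200 bp held 90 (266 per Mb) and the nearest 300 bp held 123 (253 per Mb). In front of genes outside runs the same stretches held 82.1, 96.8 and 93.4 summits per Mb. Relaxed summits numbered 403 per Mb in the gaps of runs, 757 per Mb in the nearest 200 bp of first genes and 477 per Mb in those of genes outside runs.

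The upstream neighbour of a first gene is either on the same strand, farther than 300 bp away or overlapping, or on the other strand and transcribed away from the run. Of the 271 first genes with an optimal summit, 204 had such a divergent neighbour, against 1087 of all 1908 first genes. With a divergent neighbour 18.8% of first genes (16.5 to 21.2) had an optimal summit, and with a same-strand neighbour 8.16% (6.38 to 10.2). Outside runs the shares were 7.87% (7.29 to 8.47) with a divergent neighbour and 3.68% (3.27 to 4.13) with a same-strand one. Within 500 bp of a divergent neighbour 24.4% of first genes and 14.2% of genes outside runs had a summit. In each class of arrangement, first genes thus had the higher share, and these differences were not tested. For 60 of the 271 first genes the summit also lay in the window of the first gene of another run, and for 166 in the window of some other gene, so the gene it serves was not resolved.

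The strongest summits in front of runs belonged to the following genes. K12H4.5 (WBGene00019680), which heads the run K12H4.5, spcs-3, K12H4.3 and K12H4.2, had the strongest peak of the list, at -527 bp, with a pooled signal of 2351, and 1230 in replicate 1 and 1117 in replicate 2. Its summit lay in the window of no other gene. The summit between K01G5.10 and tasp-1, a threonine aspartase gene, headed runs in both directions, toward rnf-113 and hpl-2, a heterochromatin protein, on one side and dpy-28, a subunit of the dosage compensation condensin, on the other. It had a pooled signal of 772, with 407 in replicate 1 and 366 in replicate 2. Summits between 2 heads also lay between prp-19, a spliceosome-associated ubiquitin ligase gene, and K10D2.5 (554), between F29B9.11 and jmjd-1.2, a histone demethylase gene (512), and between atad-3 and nrde-2, a factor of nuclear RNA interference (449). Ribosomal protein genes rpl-15 (523, at -343 bp) and rpl-20 (489, at -273 bp) headed a pair and a run of 3, and Y41D4A.6 (481) headed a pair. The summit of his-68 (677) lay between histone genes, which are near-identical copies, so its place is uncertain.

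The 70 later genes with an optimal summit fell into separate kinds. For 23 of them the summit also lay in the window of the first gene of the run, and for 21 of these 23 it lay upstream of the whole run. Examples are alg-5 behind his-68, emb-1, a subunit of the anaphase-promoting complex, behind K10D2.5, lig-4, a DNA ligase, behind C07H6.2, and exos-9, an exosome subunit, behind the prefoldin gene pfd-5. The other 47 later genes, here called genes with a summit of their own, rested on 43 distinct summits. By run, 261 had an optimal summit at the first gene only, 32 at a later gene's own position only, 10 at both, and 1605 at neither.

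Own summits were counted by the gap before the gene. Of the 47, 27 lay in the gap directly before the gene, and 18 of these 27 gaps were over 200 bp long. In all, 23 of the 47 genes had a gap of over 200 bp before them, against 579 of 2400 later genes. An own summit was found for 24 of 1821 later genes with a gap of up to 200 bp (1.32%) and for 23 of 579 with a longer one (3.97%). Just inside the limit, at 251 to 300 bp, 14 of 284 genes had any optimal summit (4.93%, 2.72 to 8.13). Just outside it, at 301 to 350 bp, 8 of 271 had one (2.95%, 1.28 to 5.73), and at 351 to 500 bp 44 of 786 (5.60%, 4.10 to 7.44). Genes past the limit include first genes of other runs. Past it, with a gap of up to 500 bp, 16 of 151 first genes had an optimal summit (10.6%, 6.18 to 16.6). Of genes outside runs with such a gap, 36 of 906 had one (3.97%, 2.80 to 5.46). The intervals on the 2 sides of the limit overlap, so a step at 300 bp was not resolved, and it was not tested. Of the remaining own summits, 6 lay in an intron of an earlier gene of the run, 2 in a coding exon and 3 in another exon of one, and 4 in an earlier gap. In the gene itself 4 lay in a noncoding part of an exon and 1 in an intron.

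**Figure D4:**
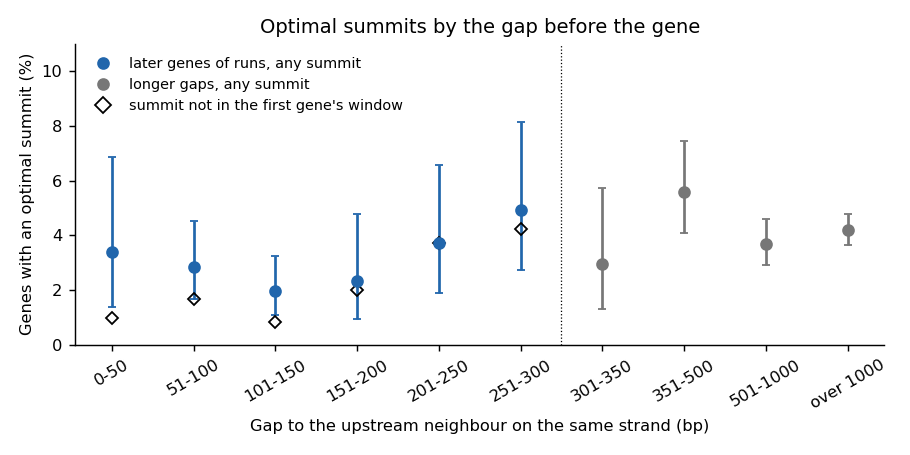
Percent of genes with an optimal summit by the length of the gap to the upstream neighbour on the same strand, with exact 95% intervals. Blue points are later genes of runs. Grey points are genes past the 300 bp limit (dotted line), both first genes of runs and genes outside runs. Open diamonds count only summits outside the window of the run's first gene, which reach 3.73% at 201 to 250 bp and 4.23% at 251 to 300 bp.

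The strongest summit inside a run lay 23 bp upstream of F10E9.11 (WBGene00017360) in the 204 bp gap after F10E9.10, and it also lay in the window of sas-4, a centriole assembly gene that comes next in the run. Its pooled signal was 808, with 384 in replicate 1 and 416 in replicate 2, and F10E9.10, the first gene, had no summit even in the relaxed list. The next, at -179 bp from bag-1, a cochaperone of Hsp70, lay in the 297 bp gap after the katanin subunit gene mei-2. It had a pooled signal of 551, with 260 in replicate 1 and 288 in replicate 2, and mei-2 likewise had no summit in either list. The F10E9.11 summit ranked 6 in replicate 1 and 7 in replicate 2, and the bag-1 summit 27 and 23, so both replicates showed these internal summits.

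Other own summits were weaker. The summit of exos-8, an exosome subunit and gene 4 of a run of 5, had a pooled signal of 333, with 168 in replicate 1 and 175 in replicate 2. Here the first gene, T14B4.3, had a summit as well, at 204. The summit counted for wrt-3, a Hedgehog-related gene (324), lay in an intron of cng-3 and within 200 bp of a snoRNA gene. Those of egl-30, a G protein alpha subunit gene (278), lrpr-1 (274), Y38C1AA.12 (268) behind the nicotinamidase gene pnc-1, fbxl-2 (253), F13A7.14 (248) and the histone gene his-37 (240, likewise a near-identical copy) all lay in the gap before the gene. At fbxl-2 the first gene rbg-3 had a weaker summit of its own, at 122. The summit shared by ddp-1, a mitochondrial import gene, and ttc-7 (200.4) was matched in the relaxed list of replicate 2 only, at 91.3.

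Among summits that passed into the optimal list, whose weakest peak has a signal of 106, the median pooled signal was 158 over first genes, 148 over later genes with an own summit, 147 over later genes that share the summit of the first gene and 164 over genes outside runs. The strongest summit of genes with any relaxed summit had a median of 71.2 over first genes, 53.5 over later genes and 60.0 over genes outside runs. In both replicates, a peak among the 2129 strongest lay within 200 bp of the optimal summit for 210 of 271 first genes (77.5%). This held for 30 of 47 later genes with an own summit (63.8%) and 705 of 915 genes outside runs (77.0%). That peak is not always the nearest replicate peak, whose signal is given next. Median signal was 77.5 over first genes and 82.0 over own summits of later genes in replicate 1, and 83.3 and 72.6 in replicate 2. Summits of the same gene class share a library, so no test was made.

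**Figure D5:**
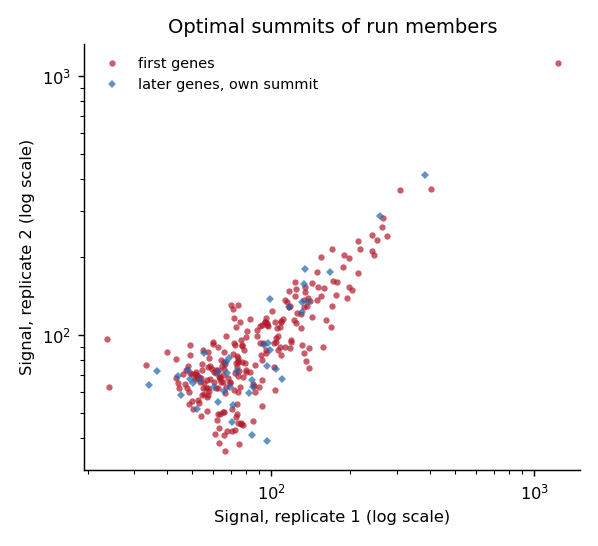
Signal in replicate 1 and replicate 2 (log scales) at the optimal summits matched in both, for first genes of runs and for later genes with a summit of their own. Each point is 1 summit, and the strongest summit of a first gene, that of K12H4.5, stands at 1230 and 1117.

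The roles of the run members were viewed through 22 lists taken from gene name patterns. Of the ribosomal protein genes, 14 of 27 that head a run had an optimal summit, none of 5 later ones, and 23 of 47 outside runs. Genes of vesicle traffic, chiefly named as Rab, vacuolar sorting and coat proteins, had one for 8 of 16 first genes, among them snx-13 and copz-1. They had one for 1 of 17 later genes and for 13 of 58 outside runs. The 1 later gene, vha-13, is a vacuolar proton pump gene that the name patterns also took in. Splicing factors had one for 4 of 13 first genes, with prp-19 and snr-4 the strongest, for none of 6 later genes and for 7 of 27 outside runs. Translation factors had one for 3 of 14 first genes, with eif-3.E and eif-3.B leading, for 1 of 4 later genes and for 7 of 21 outside runs. Proteasome genes went the other way, with none of 6 first genes and 3 of 6 later genes, among them rpn-11 and pas-1, against 3 of 21 outside runs. For 2 of these 3, rpn-11 and pbs-3, the summit was their own. That of pas-1 lay upstream of the whole run and also in the window of its first gene, rpoa-12. Mitochondrial ribosomal protein genes had none of 12 first and none of 19 later genes with an optimal summit, against 5 of 35 outside runs. Chemoreceptor genes, which are many, had none of 87 first and none of 92 later genes with one, against 7 of 1186 outside runs. Chaperone genes had one for 2 of 10 first, none of 9 later and 13 of 40 genes outside runs, and tRNA synthetase genes for 1 of 7 first, 1 of 8 later and 4 of 17 outside. In chaperone, tRNA synthetase, translation factor and respiratory chain genes the share outside runs was above that of first genes. The same held for proteasome, mitochondrial ribosomal protein, chemoreceptor, C-type lectin and neuropeptide genes, where no first gene had an optimal summit. RNA polymerase subunit genes had one for 2 of 10 first, 1 of 8 later and 1 of 6 outside, and nuclear pore genes for 1 of 2 first, none of 3 later and 5 of 21 outside. Respiratory chain and ATP synthase genes had one for 3 of 14 first, 1 of 16 later and 8 of 34 outside, and mitochondrial import and carrier genes for 1 of 3 first, none of 6 later and none of 13 outside. Histone genes had one for 2 of 4 first genes, for the 1 later gene and for 17 of 67 outside. Nuclear hormone receptor genes had one for 2 of 17 first, none of 22 later and 6 of 230 outside, and homeobox genes named ceh for 2 of 5 first, none of 5 later and 3 of 53 outside. F-box genes had one for 1 of 23 first, none of 26 later and 5 of 273 outside, and collagen genes for 1 of 7 first, none of 14 later and 4 of 140 outside. None was found at the 15 first and 27 later C-type lectin genes, against 4 of 198 outside, or at the 4 first and 5 later neuropeptide genes, against 5 of 131 outside. None was found at the 7 first, 10 later and 57 other cytochrome P450 genes, and no major sperm protein gene lay in a run. These are counts beside the 14.2% of all first genes and 2.92% of all later genes, with no test over the lists.

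Of the 8 runs of at least 6 genes, 1 had an optimal summit at the first gene, suco-1 (138, at -151 bp), and none of their 41 later genes had one. These counts are small beside shares of 14.2% of all first genes and 2.92% of all later genes. In the relaxed list 5 of 8 first genes and 12 of 41 later genes had a summit. The run of 7, from the RNA polymerase subunit gene rpb-6 to the nuclease gene crn-5, had a relaxed summit of signal 53.0 at -275 bp from rpb-6. Windows of its later genes held relaxed summits too, among them those of mrps-22 (46.5) and algn-9 (38.6). The run of 6 nuclear hormone receptor genes that starts with nhr-128 had no summit at its first gene in either list. Inside it, nhr-18 (40.8) and nhr-96 (37.6) had relaxed summits.

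Well-known tight pairs showed the same range. The summit of fib-1, the fibrillarin gene, had a pooled signal of 431 at -164 bp, with 217 in replicate 1 and 215 in replicate 2, and also lay in the window of mut-15, while rps-16, the ribosomal protein gene behind it, had no summit in either list. The gap before rps-16 is the one printed above. For mev-1, a succinate dehydrogenase subunit gene, the summit at -89 bp (139) also lay in the window of ced-9, the cell death inhibitor gene behind it, at -984 bp. It had 55.1 in replicate 1 and 87.1 in replicate 2. For gpd-2 and gpd-3, glyceraldehyde phosphate dehydrogenase genes, neither had a summit in either list. Upstream on the same strand, mai-1 overlaps gpd-2, so gpd-2 counts as a first gene by the spacing rule. The mai-1 gene had a relaxed summit of 55.4 at -530 bp and none in the optimal list. The acetylcholine receptor genes des-2 and deg-3 had none in the optimal list and relaxed summits of 41.1 and 37.9, each matched in 1 replicate only. The genes mai-1, lin-15A, lin-15B, vps-51, lin-35, ref-2 and unc-119 fell in no run by the spacing rule.

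Sequence at the summits was described by a few short words. The Zic core CAGCAGG or CAGCGGG, counted on both strands in 201 bp around the summit, was found at 12 of 241 summits of first genes (4.98%, 2.60 to 8.54), 3 of 43 own summits of later genes (6.98%, 1.46 to 19.1) and 6.56% of summits of genes outside runs, against 6.62% of all optimal summits. In stretches of the same length centred 200 bp upstream of all genes it was found in 1.40%. The letters CGCG, chosen after the sequences were seen, occurred at 66.8% of summits of first genes (60.5 to 72.7), 65.1% of own summits of later genes (49.1 to 79.0) and 60.9% of summits of genes outside runs, against 54.9% of all optimal summits and 20.5% of the stretches upstream of all genes. By group, the upstream stretches held CGCG for 27.5% of first genes, 14.6% of later genes and 20.6% of genes outside runs. Median GC content was 43.3% at summits of first genes and 42.8% at own summits of later genes. It was higher at summits of genes outside runs (45.8%) and at all optimal summits (47.3%), and 33.8% upstream of all genes. None of the 8 summit sequences printed above holds the Zic core, and among them K12H4.5, K01G5.10, fbxl-2 and F13A7.14 hold CGCG near the summit. The gap printed for F10E9.11 holds CGCG as well, but outside the 201 bp around its summit.

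The letters at the start of the genes were counted for the annotated 5′ ends, again after the sequences were seen. A CAG directly before the 5′ end, as printed for gpd-3, rps-16 and deg-3, was present at 31.9% of first genes (29.8 to 34.0), 28.6% of later genes (26.8 to 30.5) and 19.9% of genes outside runs, against 22.1% of all genes. Within later genes it was present at 31.3% of those with a gap of up to 200 bp and 20.2% of those with a longer gap. A longer form, TTTCAG in the 20 bp upstream on the strand of the gene, was present at 21.4% of first genes, 15.6% of later genes and 13.8% of genes outside runs, against 14.7% of all genes. Later genes thus had the lower share in both counts, with intervals that overlap for CAG and do not for TTTCAG (19.6 to 23.3 for first genes, 14.2 to 17.1 for later genes). These differences were not tested.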

How the data were processed

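Per the labels' file descriptions, the authors deposited relaxed peak lists of each replicate and of both pooled, and an optimal list cut at a reproducibility threshold. The signal per peak and the −log10 q per peak are deposited values. The sources used here do not name the aligner or the peak caller, or say whether a control was used. Lists on ce10 were not used. The depth of each library is unknown, and nothing in the labels says whether the replicates were separate cultures.

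Genes came from Ensembl release 115 for WBcel235 and sequence from RefSeq's copy of the same assembly. Runs were found among protein-coding genes in order of position, and a protein-coding gene on the other strand ended a run. Summits were counted in windows of 1200 bp. Replicate peaks were matched within 200 bp. The exact two-sided binomial test used 1 pair per run, with Benjamini-Hochberg adjustment over 2 lists and a threshold of 0.05, and was tested on an artificial genome with known answers. A summit of a later gene was called its own when outside the window of the run's first gene. Python 3.11.15, numpy 2.4.6, scipy 1.17.1 and matplotlib 3.10.9 were used.

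Members and lists were chosen with earlier results of these data known. Named were the 12 first genes and the 12 later genes with an own summit of highest signal, with ties, the longest runs, up to 2 first and 2 later genes per gene list, and a set of textbook pairs. Alternatives covered gap limits, windows, transcript starts, peak thresholds and each replicate alone.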

Additional observations from a re-analysis of the deposited data

How the results depend on the processing

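Both differences between the first and the second gene of a run kept their direction and passed the threshold under all 16 alternatives, 1 of them chosen after seeing the data. For the optimal list they lay between 6.76 and 12.2 percentage points (largest adjusted p of the exact binomial test 8.42e-21), with 9.96 to 11.2 when 1 replicate was left out. For the pooled relaxed list they lay between 5.82 and 16.6 points (largest adjusted p 1.10e-05), with 11.3 to 13.7 when 1 replicate was left out. With summits near noncoding genes removed the differences were 9.07 and 10.3 points, with windows that share no base 11.4 and 13.8 points, and with 1 run per shared summit 10.1 and 12.01 points. The shares themselves moved more with the settings: that of first genes lay between 8.49 and 16.9% and that of later genes between 1.63 and 6.75% in the optimal list, and between 33.0 and 59.2% of first genes and 16.3 and 52.9% of later genes in the relaxed list. Without read counts or a control library, a missing summit cannot be told apart from one below the threshold of the list.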
